A study of Macaca mulatta with 144 samples.

Results

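Serum miRNAs were compared between day 6 and day 1 after total body irradiation (TBI) in rhesus macaques of the Chinese sub-strain, called NHPs here. Every library labelled day 6 (36) was set against every library labelled day 1 (36), paired by the animal code in its label, which took 72 of the 144 libraries of the series. Libraries taken before irradiation were not used, and day 2 libraries serve only as a description between the compared days. All 36 NHPs (19 males, 17 females, with no age in the labels) received gamma TBI at 1 of 6 doses that ran from 6.0 to 8.5 Gy, 6 animals a dose, so both days carry the same animals and doses and differ in time since irradiation (TSI). By the labels 15 animals survived and 21 were deceased, a classification the study calls risk to radiation-induced fatality (RRiF). Each library was made from serum, a cell-free fluid. A level is a scaled share of the library's counts, not an amount released into blood, and fewer releasing cells and less release per cell cannot be told apart.

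miRNAs are short RNAs that are held in protein complexes and repress messenger RNAs. Several are made mostly in 1 kind of tissue, and these reach serum in small amounts when its cells turn over or break. miR-375 is rich in pancreatic islets and gut endocrine cells, miR-216a, miR-216b and miR-217 in the acinar cells of the pancreas, miR-133a and miR-208b in striated muscle, miR-143 and miR-145 in smooth muscle, miR-150 and miR-342 in lymphocytes, and miR-486 and miR-451 in red blood cells. The comparison asks which of them distinguish an acute serum profile, a day after TBI, from a later one.

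On day 6, 4 miRNAs were lower than on day 1 and 1 was higher, out of 277 tested. The lower ones were miR-375 and the lymphocyte miR-342-3p together with the muscle miRNAs miR-208b-3p and miR-133a, and the higher one was the smooth muscle miR-143-3p. Fitted changes on the log2 scale, day 6 over day 1, were -2.08 ± 0.44 (SE) for miR-375, -1.45 ± 0.33 for miR-342-3p, -2.52 ± 0.58 for miR-208b-3p, -1.98 ± 0.49 for miR-133a and 0.90 ± 0.26 for miR-143-3p (36 pairs). The median change over the 277 miRNAs was -0.02, with 144 values negative and 133 positive. It was -0.23 with library totals alone, 0.10 in DESeq2 and 0.14 in limma-voom. Tests were edgeR quasi-likelihood F tests of the deposited counts with the animal as block and TMM scaling, and adjusted p-values under 0.05 count as passed: 1.81% of the tested miRNAs passed, 1.44% as lower on day 6 and 0.361% as higher. At an unadjusted p under 0.05, 14 miRNAs were lower (5.05%) and 12 were higher (4.33%). With other scalings or tools the higher and lower calls numbered 2 and 4 (TMMwsp), 6 and 5 (DESeq2), 2 and 2 (limma-voom) and 0 and 0 when libraries were scaled by their totals alone, where the adjusted p was 0.283 for miR-375, miR-342-3p and miR-208b-3p, 0.325 for miR-133a and 0.994 for miR-143-3p.

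**Figure D1:**
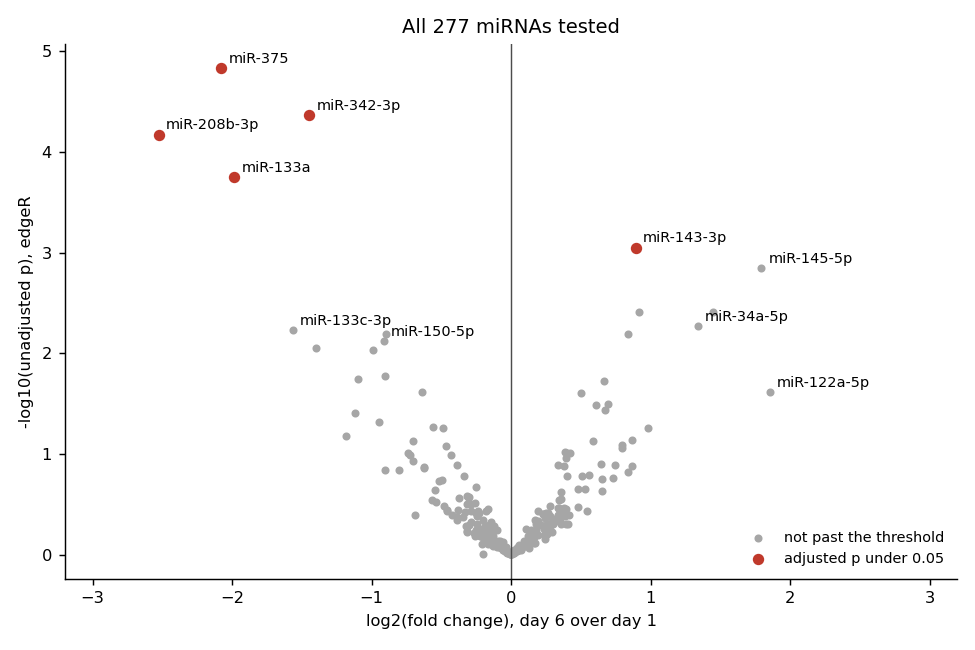
log2(fold change) of day 6 over day 1 (horizontal axis) against the unadjusted edgeR p on a -log10 scale (vertical axis) for the 277 miRNAs tested, each a point, with the 5 that passed in red. The 4 that were lower on day 6 lie at -2.52 to -1.45, and miR-143-3p, the higher one, at 0.90.

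Depth and composition varied widely between libraries. Total counts ran from 11174 to 4118401 on day 6 (median 204734.5) and from 23222 to 1705145 on day 1 (median 286145). The red blood cell miRNA miR-486-5p took 42.1% to 91.5% of the counts on day 6 (median 73.1%) and 38.1% to 92.3% on day 1 (median 73.6%), which leaves few counts for tissue miRNAs. TMM factors, which rescale totals for such differences in composition, spanned 0.0968 to 3.12 on day 6 and 0.136 to 4.44 on day 1. Neither totals, miRNAs detected, the miR-486-5p share, the TMM factor nor a haemolysis score (miR-451 over miR-23a-3p on the log2 scale) passed a sign-flip permutation test between the days over 36 animals (adjusted p = 0.929 to 0.945). Totals lay under 26182 counts in 4 libraries, those of RA2021F, RA2445M and RA2743F on day 6 and of RA2816M on day 1. The day 1 library of RA2694M held the same counts as another animal's library from before irradiation, so at least 1 of these labels does not describe its library. Without RA2694M the same 4 miRNAs were lower on day 6, and miR-143-3p no longer passed (adjusted p = 0.153). miR-216a-5p also passed there, but it was not among the 277 tested in the main fit. It had counts in 5 day 6 and 23 day 1 libraries. It came within the filter there because this animal, which had no count of it, was left out. It passed in 12 of the 36 fits that left out 1 animal.

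miR-375, a regulator of insulin secretion in mice, showed the smallest p of all. Its normalised level on day 6 was 0 to 644 counts per 1000000 (CPM), with a median of 204 CPM. On day 1 it ran from 0 to 10183 CPM with a median of 1149 CPM. No day 6 library exceeded the day 1 median, and 20 of 36 day 1 libraries exceeded the highest day 6 level, so the spread on day 1 was far wider and the groups still overlapped at the low end. Within animals, 31 were lower on day 6 and 5 higher (edgeR adjusted p = 0.00407). RA2743F and RA2709M had no count on day 6, against 5930 and 1385 CPM on day 1. In these day 6 libraries 1 count stood for 178 and 62.2 CPM, so a level of 0 there is coarse. Among animals with counts on both days the steepest drop was that of RA0724F, with 30.1 CPM on day 6 and 2740 CPM on day 1, and RA2592M had the highest level of all, 166 CPM on day 6 and 10183 CPM on day 1. RA2742F and RA2733F went the other way, with 299 and 327 CPM on day 6 and no count on day 1. On day 2 the median was 199 CPM, so by days 1, 2 and 6 the medians were 1149, 199 and 204 CPM.

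**Figure D2:**
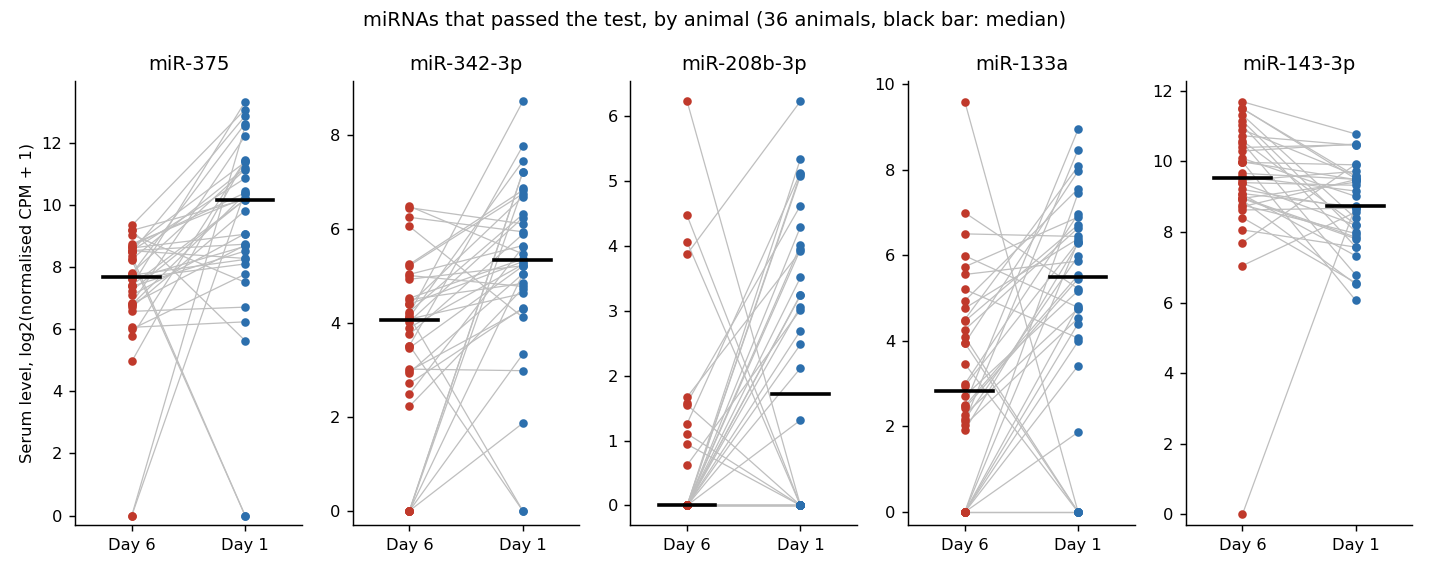
Serum levels, as log2(normalised CPM + 1), of the 5 miRNAs that passed, on day 6 (left, red) and day 1 (right, blue); each point is 1 library, a grey line joins the libraries of 1 animal, and a black bar marks the median of 36. Medians of the first 4 miRNAs lie lower on day 6, that of miR-143-3p lies higher, and single animals cross the pattern in every panel.

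The acinar miRNAs were rarer and showed a sharper contrast in raw counts. miR-216a-5p, a miRNA used in rats as a serum marker of acinar injury, had 7 counts over all day 6 libraries, in 5 animals and at most 2 in a library. On day 1 it had 262 counts, in 23 animals and up to 38 in a library. Its neighbour miR-216b, whose gene lies in the same long non-coding transcript as that of miR-216a in the T2T-MMU8v2.0 annotation, had 3 counts on day 6 and 76 on day 1. miR-217, the third member of this pancreatic cluster, had no count in any day 6 library and 84 counts in 15 animals on day 1. The same held for miR-802, a miRNA known from liver and islets of obese mice, with 0 counts on day 6 and 70 counts in 14 animals on day 1. As a share of the pooled counts (19688010 on day 6, 15459823 on day 1), miR-216a-5p was 47.7-fold lower and miR-216b 32.3-fold lower on day 6. For the miRNAs at 0, a floor of 3 counts over the day 6 libraries makes miR-217 at least 35.7-fold lower and miR-802 at least 29.7-fold lower, counting error only.

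These 4 miRNAs had counts in under 40% of the libraries and so stood outside the 277 tested. In a fit of all 580 miRNAs with a count, 9 passed (1.55%), 8 of them lower on day 6 (1.38%): miR-375, miR-342-3p, miR-208b-3p and miR-133a, and these 4. Fitted log2 changes were -4.27 ± 0.59 for miR-216a-5p (edgeR adjusted p = 4.28e-10), -3.72 ± 0.72 for miR-216b (2.33e-05), -4.17 ± 0.72 for miR-217 (1.60e-06) and -3.76 ± 0.75 for miR-802 (5.38e-05), values that depend on the prior count where a day holds no count. These p-values lean on a spread pooled across miRNAs and are not a test over animals, which is given below. The SE of miR-375 was 0.30 in this fit and 0.44 in the main one. All 4 also passed in that fit when libraries were scaled by their totals alone (adjusted p = 1.13e-06 to 0.000208), as did miR-375 and miR-208b-3p (adjusted p = 0.00513 and 0.0201) but not miR-133a and miR-342-3p (adjusted p = 0.154 and 0.380). Without the animal block 29 of the 580 passed, 15 of them lower on day 6, these 4 included. They were singled out after their values were seen, and miR-802 was on no list. The list of pancreas and gut endocrine miRNAs held miR-375, miR-216a, miR-216b, miR-217 and miR-7, and the last of these had 0 counts on day 6 and 2 on day 1. Summed over miR-216a, miR-216b and miR-217, 26 animals had a lower level on day 6, 1 had a higher one and 9 had no count on either day. On day 2 the same sum was 94 counts, against 422 on day 1 and 10 on day 6.

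**Figure D3:**
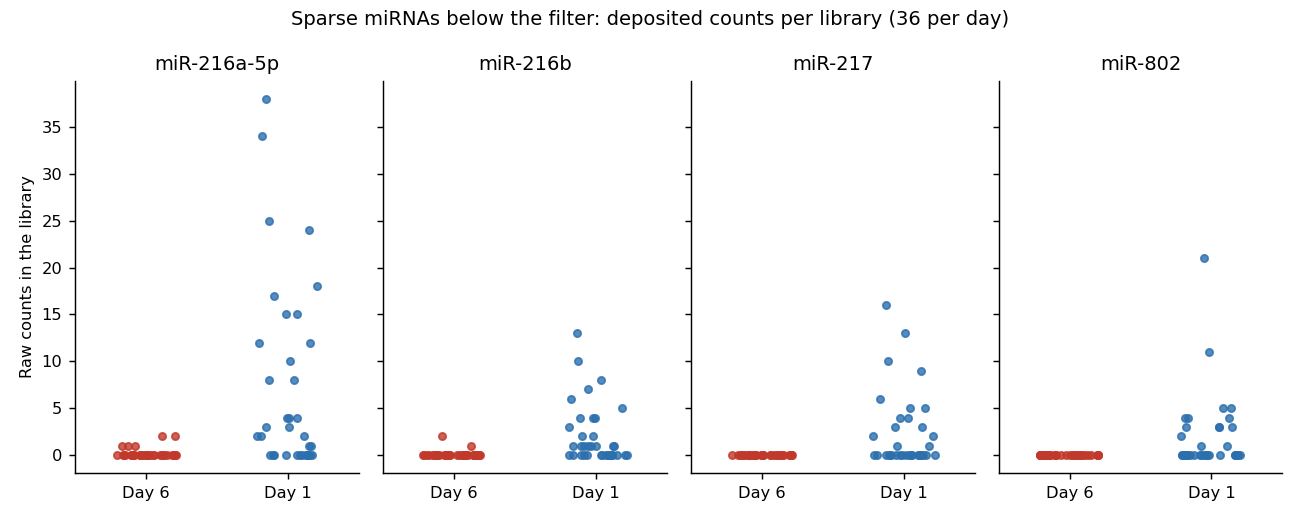
Raw counts of miR-216a-5p, miR-216b, miR-217 and miR-802 in each library (vertical axis) on day 6 (left, red) and day 1 (right, blue), 36 points a day, spread sideways at random. Day 6 libraries hold at most 2 counts of any of them, whereas day 1 libraries reach 38 for miR-216a-5p.

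Both muscle miRNAs that passed were lower on day 6. miR-133a, which is made from a gene beside that of miR-1 and tunes muscle growth, had 0 to 771 CPM on day 6 (median 6.13 CPM). Its day 1 levels were 0 to 491 CPM, with a median of 44.1 CPM. The highest value of all was the day 6 library of RA2318M, an animal with no miR-133a count on day 1, and apart from it the day 6 levels reached 127 CPM. It was lower on day 6 in 26 animals and higher in 8 (edgeR adjusted p = 0.0124). miR-208b-3p, whose gene sits inside MYH7, the slow myosin heavy chain gene of heart and skeletal muscle, was near the detection limit. It had a count in 11 day 6 libraries and in 19 day 1 libraries. The 40% filter took both days together, so its place among the tested miRNAs rests more on day 1, where its level was higher. It was not called with a count required in 60% of libraries, nor with the 40% filter over the whole series. Its day 6 levels were 0 to 73.8 CPM (median 0) and its day 1 levels 0 to 73.9 CPM (median 2.41 CPM). Of the animals, 19 were lower on day 6, 6 were higher and 11 had no count on either day, and RA2318M again held the highest day 6 level (edgeR adjusted p = 0.00622). Without RA2318M, 8 miRNAs passed in place of 5, with miR-133c-3p, miR-145-5p and miR-216a-5p added. The last of these was not tested in the main fit. It came within the filter in that fit because RA2318M, which had no count of it, was left out.

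Of the 16 muscle miRNAs matched, 10 had a count and 4 were tested, with a median log2 change of -1.77 beside -0.02 for all miRNAs. The other tested members were miR-133c-3p, a near copy of miR-133a between which counting may split reads (-1.56 ± 0.54, adjusted p = 0.148), and the widely expressed miR-378a (-0.49 ± 0.25, adjusted p = 0.527). Among those too rare to test, the heart-enriched miR-499-5p had 36 counts on day 6 and 72 on day 1, miR-133b-3p 3 and 23, and miR-1-3p, the most abundant muscle miRNA of tissue, 0 and 2. miR-206, which is specific to skeletal muscle, had 2 counts on day 6 and 0 on day 1. Without the animal block the calls were lost, at -1.004 for miR-133a (adjusted p = 0.321) and -1.53 for miR-208b-3p (adjusted p = 0.0984). In limma-voom they were lost at -1.46 (adjusted p = 0.0847) and -1.19 (adjusted p = 0.206). DESeq2 called miR-133a but gave miR-208b-3p no adjusted p (-1.72, unadjusted p = 0.0329).

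miR-342-3p lies in an intron of EVL, a gene active in leucocytes, and is abundant in B and T lymphocytes. On day 6 it had 0 to 88.8 CPM with a median of 15.7 CPM, against 0 to 421 CPM with a median of 39.4 CPM on day 1. It was lower on day 6 in 28 animals and higher in 8 (edgeR adjusted p = 0.00594), and 9 day 1 libraries lay above every day 6 library. Day 2 stood between them with a median of 23.5 CPM. The opposite arm, miR-342-5p, was tested and did not pass. It had 92 counts in 18 day 6 libraries and 104 in 21 day 1 libraries, against 344 and 1414 counts of miR-342-3p. miR-150-5p, another lymphocyte miRNA and a repressor of MYB in mice, had 102 to 12209 CPM on day 6 (median 577 CPM) and 131 to 15773 CPM on day 1 (median 984 CPM), a log2 change of -0.91 ± 0.33 that did not pass (adjusted p = 0.162). It passed without the 4 animals of low totals (-1.29, adjusted p = 0.00498) and in DESeq2 (adjusted p = 0.049). Of 11 lymphocyte miRNAs tested, 9 had a negative value and 1 passed, beside 144 negative values and 1.44% passed as lower among all 277, and the list median was -0.34. miR-181a-5p, its most abundant member, stood at -0.06 ± 0.19 (adjusted p = 0.986). List medians for other blood cells were -0.18 for 9 myeloid miRNAs, 0.24 for 11 of platelets and endothelium and 0.06 for 11 of red blood cells, where no member passed. With library totals alone these medians were 0.02 for platelets and endothelium and -0.30 for red blood cells, beside -0.23 for all miRNAs.

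miR-143-3p was the miRNA that passed as higher. Its day 6 levels ran from 0 to 3309 CPM with a median of 732 CPM, and day 1 levels from 65.7 to 1753 CPM with a median of 423 CPM. It was higher on day 6 in 27 animals and lower in 9, and 7 day 6 libraries lay above every day 1 library. The day 6 library without a count was that of RA2743F, which had 19254 counts in all. The call was marginal (edgeR adjusted p = 0.0496) and was lost in 23 of the 36 fits that left out 1 animal, up to an adjusted p of 0.186 without RA2745F. miR-145-5p comes from the gene next to it in the T2T-MMU8v2.0 annotation and is likewise rich in smooth muscle. It had 0 to 36.4 CPM on day 6 (a count in 18 libraries) and 0 to 13.5 CPM on day 1 (13 libraries), a log2 change of 1.79 ± 0.53 that did not pass (adjusted p = 0.0656) but did with TMMwsp factors (adjusted p = 0.0413). Its highest day 6 level was 1 count in the library of RA2118F, and the next was 35.1 CPM, from 14 counts in RA0724F. The opposite arm, miR-145-3p, stood at 0.80 ± 0.46 (adjusted p = 0.672). All 3 smooth muscle miRNAs tested had positive values under every scaling, beside 133 of all 277 in the edgeR fit. Of the 3, 1 passed, beside 0.361% of the 277 passed as higher. With library totals alone none of the 3 reached an unadjusted p under 0.05 in edgeR.

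miRNAs that p53 raises in cultured cells had a list median of 0.82 over 8 tested, of which 1, miR-143-3p, passed and 6 were positive. Among all 277, 0.361% passed as higher and 133 were positive. With library totals alone 5 of the 8 were positive and none reached an unadjusted p under 0.05 in edgeR. This list is not separate from the smooth muscle one: it shares miR-143-3p, miR-145-3p and miR-145-5p with it, and these 3 were all positive. miR-34a-5p, the best known p53 target among miRNAs, had 0 to 36.4 CPM on day 6 (median 4.49 CPM) and 0 to 13.3 CPM on day 1 (median 1.69 CPM). The highest day 6 level was 1 count in the library of RA2118F, and the next was 22.4 CPM, from 7 counts in RA2592M. The difference between the days (1.34 ± 0.46 on the log2 scale, 20 animals higher and 9 lower) did not pass at an adjusted p of 0.148. miR-215-5p, which is rich in intestine, had a median of 174 CPM on day 6 and 70.7 CPM on day 1 (0.84 ± 0.30, adjusted p = 0.148), and passed in DESeq2 (adjusted p = 0.0306). Its close relative miR-192-5p stood at -0.10 ± 0.28 (adjusted p = 0.986). The liver miRNA miR-122a-5p was detected in 19 day 6 and 13 day 1 libraries, at up to 383 and 291 CPM (1.85 ± 0.80, adjusted p = 0.329), whereas miR-148a-3p, the most abundant liver miRNA in these sera, stood at -0.17 ± 0.29 (adjusted p = 0.986).

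In the miR-10 and miR-99/100/125 group, whose genes lie in the HOX clusters or beside let-7 genes, all 12 tested members had a positive value under each scaling, beside 133 of all 277 in the edgeR fit, and none passed in that fit. The list median was 0.40, and 4 members reached an unadjusted p under 0.05. miR-10b-5p, which carried a median of 4.31% of the counts on day 6 and 3.26% on day 1, had a log2 change of 0.70 ± 0.32 and miR-10a-5p one of 0.61 ± 0.28 (adjusted p = 0.397 for each). miR-99b-5p, at 0.67 ± 0.28 (adjusted p = 0.290), passed in DESeq2 (adjusted p = 0.0492), as did miR-10b-5p (adjusted p = 0.0492). miR-125b-1-3p (1.45 ± 0.48) and let-7e-5p (0.92 ± 0.30) both had an adjusted p of 0.136, and let-7e-5p passed in DESeq2 and limma-voom (adjusted p = 0.0234 and 0.0189). The most abundant members of the other lists had log2 changes of 0.09 for let-7f-5p, 0.15 for miR-92a-3p, -0.04 for miR-16-5p, -0.34 for miR-29a-3p, 0.01 for miR-30a-5p, -0.19 for miR-182, 0.15 for miR-27b-3p, 0.13 for miR-654-3p of the imprinted DLK1-DIO3 region, -0.23 for the brain miRNA miR-128a-3p, -0.03 for miR-21-5p and 0.05 for miR-221-3p, none of which passed. List medians were -0.01 for 14 let-7 miRNAs, -0.23 for 15 of miR-17/92 and its paralogs, -0.16 for 9 of miR-15/16, -0.49 for 2 of miR-29, -0.07 for 9 of miR-30 and 0.16 for 6 of miR-23/27/24. They were 0.18 for 40 of the DLK1-DIO3 region, -0.05 for 6 of liver, -0.08 for 8 of epithelia, 0.23 for 6 of brain and 0.06 for 9 responsive to inflammation, with no member passing.

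**Figure D4:**
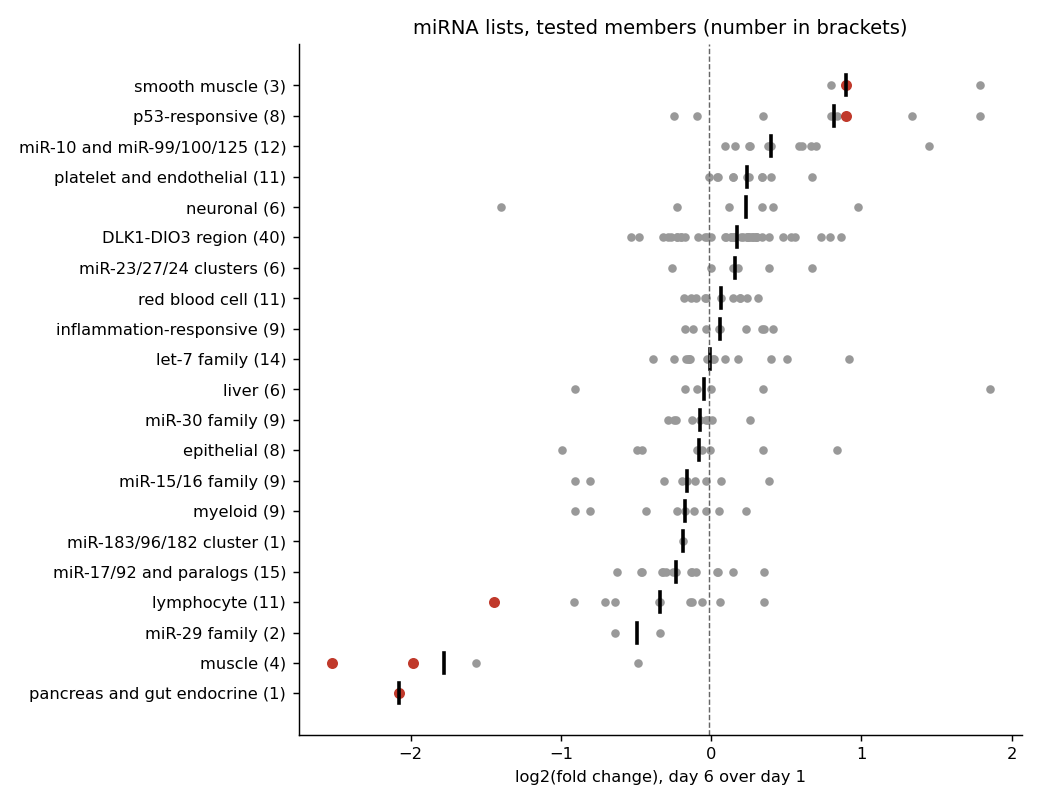
log2(fold change) of day 6 over day 1 (horizontal axis) for the tested members of each miRNA list (rows, with the number tested), in red where a member passed; black bars mark list medians and the dashed line the median of all 277 miRNAs. Muscle, at -1.77, and smooth muscle, at 0.90, lie near opposite ends.

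miR-141-3p, an epithelial miRNA of the miR-200 family that the study names as a hub, had a median of 39.6 CPM on day 6 and 94.6 CPM on day 1 (-0.99 ± 0.37, 24 animals lower, adjusted p = 0.170). It passed without the animal block (adjusted p = 0.00113) and in DESeq2 (adjusted p = 0.0352). miR-138-5p, which is rich in brain, stood at -1.40 ± 0.51 (adjusted p = 0.170) and miR-26b-3p at -0.89 ± 0.32 (adjusted p = 0.148). Among miRNAs that the text of the study ties to TSI, miR-27b-3p is given above, and these log2 changes did not pass: 0.23 ± 0.27 for miR-21-3p, 0.16 ± 0.38 for miR-10a-3p, -0.19 ± 0.29 for miR-26b-5p, 0.59 ± 0.32 for miR-125b-2-3p and -0.18 ± 0.38 for miR-142-3p. The study took its markers from regressions over time of fold changes from the pre-irradiation baseline, some in males or females alone. That differs from the comparison here. It reports miR-26b-5p, miR-125b-2-3p and miR-142-3p as falling with time, and of these miR-125b-2-3p alone had a positive value here. It reports miR-27b-3p, miR-21-3p and miR-10a-3p as rising with time, and their values here were positive. All these values except that of miR-125b-2-3p were smaller than their SE. Among the 10 miRNAs with the largest shares of counts, the changes were 0.31 ± 0.43 for miR-486-5p, 0.19 ± 0.21 for miR-451, -0.00488 ± 0.23 for miR-22 and 0.50 ± 0.22 for miR-423-5p, of which miR-423-5p passed in DESeq2 (adjusted p = 0.0352).

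The changes were also tested animal by animal, with two-sided sign flips of log2(CPM + 1) differences over 36 animals (100000 permutations), which weights every animal alike whatever its depth. None of the 277 miRNAs passed after adjustment, with the smallest adjusted p of 0.072 for miR-342-3p (mean change -1.70 ± 2.55, SD), and 21 had an unadjusted p under 0.05. Unadjusted permutation p-values were 0.00277 for miR-375 (mean change -2.08 ± 3.96), 0.00324 for miR-133a (-1.85 ± 3.45), 0.01 for miR-208b-3p (-1.25 ± 2.71) and 0.0484 for miR-143-3p (0.71 ± 2.15). Over all 580 miRNAs with a count, a step chosen after seeing the data, 5 passed this test, and 4 of them were miR-216a-5p, miR-216b, miR-217 and miR-802 (adjusted p = 0.0029 to 0.0116 in the permutation test). The fifth was miR-342-3p.

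Counted by animal, all 4 of the called lower miRNAs lay below their day 1 level in 16 animals, 3 in 9, 2 in 4, 1 in 5 and none in RA2318M and RA2742F. The changes of miR-133a and miR-208b-3p were correlated across 36 animals (r = 0.70, rho = 0.57, adjusted permutation p = 0.00033 and 0.00511), as were those of miR-375 and miR-216a-5p (r = 0.56, rho = 0.64, adjusted permutation p = 0.00495 and 0.00066). Without the 2 animals farthest from the median of the first measure, r was 0.56 and 0.53. miR-133a and miR-375 were related more loosely (r = 0.46, rho = 0.49, adjusted permutation p = 0.0476 and 0.0235, r = 0.46 without 2 animals), and so were miR-342-3p and miR-133a (r = 0.44, rho = 0.49, adjusted permutation p = 0.0476 and 0.0235, r = 0.43 without 2 animals). miR-143-3p and miR-375 had r = 0.56 (adjusted permutation p = 0.012), which rested on few animals, since rho was 0.33 (adjusted permutation p = 0.164) and r was 0.25 without 2 animals. These are 5 of 33 relations computed, chosen after the calls were known. The changes compared share libraries, depth and scaling, and the part of these in the relations was not tested. Correlations of the same changes with those in log10 total, log2 TMM factor and haemolysis score did not pass (18 of the 33 relations, adjusted permutation p of r from 0.109 to 0.888 and of rho from 0.061 to 0.985). Unadjusted permutation p of r was 0.0339 for miR-208b-3p and 0.0457 for miR-133a with log10 total. It was 0.0252 for miR-216a-5p with the log2 TMM factor.

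Whether the change between the days varied with radiation dose (RD), sex or RRiF was tested next. In edgeR tests of the interaction, 0 of 277 miRNAs passed for each factor (0%), while 5, 6 and 6 had an unadjusted p under 0.05 for dose, sex and RRiF. The smallest adjusted p was 0.236, for miR-550-3p and RRiF (4.16 ± 1.16 on the log2 scale, deceased minus survived). For miR-375 the mean change in log2(CPM + 1) was -3.72 ± 2.28 at 6.0 Gy, -2.14 ± 1.32 at 6.5 Gy, -1.93 ± 1.11 at 7.0 Gy, -3.60 ± 4.16 at 7.5 Gy, 0.70 ± 4.46 at 8.0 Gy and -1.81 ± 6.98 at 8.5 Gy (SD, n = 6 each). Single animals set the means at the highest doses. At 8.0 Gy the mean was -0.83 without RA2733F, which had no count on day 1, and 0.13 without RA2694M, whose day 1 library is the repeated one. At 8.5 Gy it was 0.33 without RA2743F and -3.82 without RA2742F, and at 7.5 Gy -2.24 without RA2709M. All 18 animals at 6.0 to 7.0 Gy were lower on day 6, and the 5 higher ones, RA2694M among them, had received 7.5 Gy or more, but the slope over dose was 0.98 ± 0.51 per Gy with an adjusted p of 0.999 in edgeR. miR-342-3p was lower on day 6 in 13 of 21 deceased and in 15 of 15 surviving animals, an interaction of 1.07 ± 0.66 (edgeR adjusted p = 0.981). The day 6 libraries of low total, those of RA2021F, RA2445M and RA2743F, all came from survivors and held no miR-342-3p count. Nor did those of RA2709M (survived) and of RA0456F and RA2816M (deceased). miR-133a was lower in 16 of 19 males and 10 of 17 females (-1.47 ± 0.98, males minus females, edgeR adjusted p = 0.999). Dose, sex and RRiF were partly tied together in these animals, with 1 to 5 males and 1 to 4 survivors a dose.

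**Figure D5:**
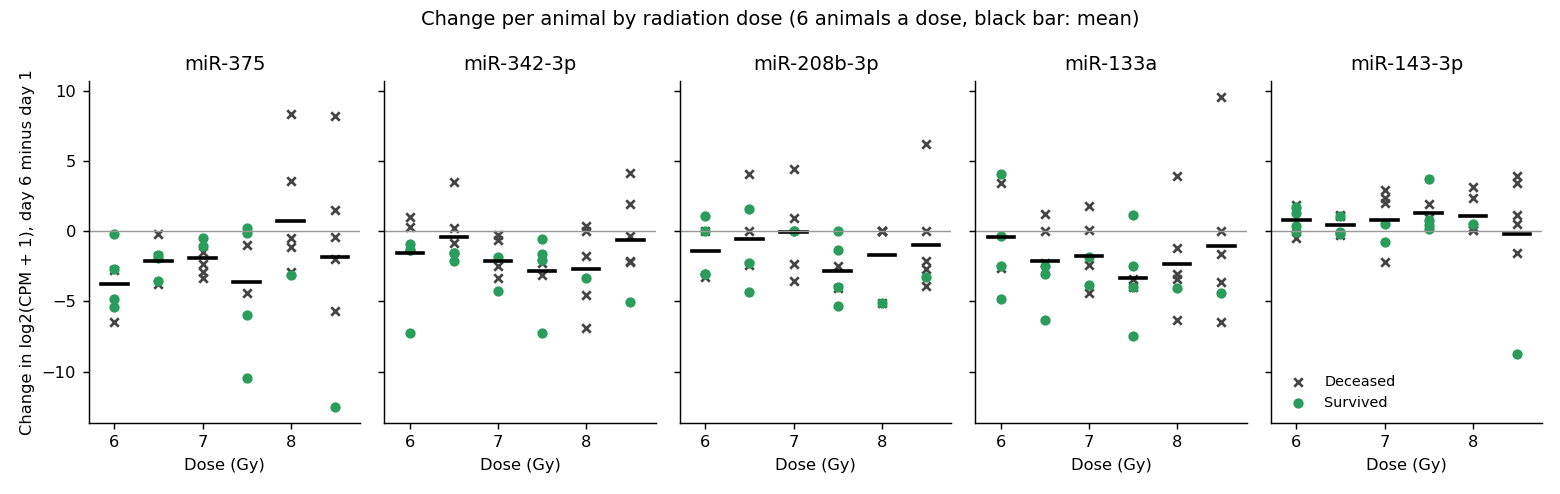
Change in log2(CPM + 1), day 6 minus day 1 (vertical axis), of each animal against radiation dose in Gy (horizontal axis) for the 5 miRNAs that passed; crosses are deceased and green circles surviving animals, and black bars are means of 6. For miR-375 all animals at 6.0 to 7.0 Gy lie below 0, and the values at 8.0 and 8.5 Gy spread to both sides.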

How the data were processed

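Serum was collected before transfusion, and small RNA libraries were sequenced from it. The authors deposited raw read counts per miRNA (908 miRNAs, annotated to miRBase in Genomics Workbench) for 144 libraries, and these counts were used as deposited. All 144 columns were matched to a sample through the labels (0 left unmatched). miRNA names are those of the deposited table, and 46 of 48 looked up were found in a RefSeq gene table of T2T-MMU8v2.0, which was used for host and neighbouring genes only.

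Of 580 miRNAs with a count on day 6 or day 1, 277 had one in at least 40% of the 72 libraries and were tested with edgeR 4.0.16 (TMM, quasi-likelihood F test, animal as block) in R 4.3.3, with Benjamini-Hochberg adjustment and a threshold of 0.05. Alternatives used DESeq2 1.42.0 and limma 3.58.1. Animal-level changes in log2(CPM + 1), with CPM per 1000000 TMM-scaled counts, were tested with 100000 two-sided sign flips in Python 3.11.15 (numpy 2.4.6, pandas 2.3.3). SE belongs to the fitted log2 change, and SD to the spread over animals.

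Pairing rests on the animal codes. Deviations of the 2 libraries of an animal had a mean r of 0.0331 (11 of 36 over 0.1, lowest -0.319). Between animals the mean r was 0.0126 (430 of 1260 over 0.1, lowest -0.52). By these values the libraries of 1 animal were hardly more alike than those of different animals. The day 1 library of RA2694M and 1 library from before irradiation held identical counts (total 82153). No 2 libraries of the comparison were identical. Animals are the replicates. Sign-flip p-values rest on the spread between animals alone. edgeR p-values rest on a spread estimated partly or wholly from other miRNAs, and low counts give counting error on top.

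The miRNAs named are those called, the 10 with the smallest p, the called or most abundant member of each list, miRNAs taken from the study on TSI (miR-10a-5p included) and its hub, the 10 with the largest share of counts, and miR-34a-5p. The members and lists were chosen with earlier results of these data known.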

Additional observations from a re-analysis of the deposited data

Results flagged for a closer look

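Of 36 groups checked for a sample that lies far from the rest, 1 stood out, and chance gives about 1 in 20. At 6.0 Gy the change of miR-342-3p in log2(CPM + 1) was -7.22 in RA2445M, while the nearest of the other 5 animals was at -1.34. The day 6 library of RA2445M had no count of miR-342-3p and a total of 24458 counts, 1 of the 4 lowest totals.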

How the results depend on the processing

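The 4 lower calls held in each of 36 fits that left out 1 animal, where the number of calls ran from 4 to 8. The number was 5 without the animal block (no pairing), 3 of them shared with the paired fit, 0 with library totals alone (8 at an unadjusted p under 0.05), 3 with a count in 60% of libraries, 3 with the filter over 144 libraries, 9 with no filter and 11 in DESeq2. Animal-level calls were 2 with a pseudocount of 10 and 5 with no filter, an alternative chosen after seeing the data, against 0. Interactions with dose, sex and survival gave 0 calls with library totals alone, with the 60% filter and without animals of low totals. Without animals of low totals the mean differences were 0.0526 for log10 total and -1.05 points for the miR-486-5p share. Upper-quartile factors were not run, because 1 library has an upper quartile of 0.

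No called miRNA changed direction. Uncalled miRNAs near 0 did, and the cause was not tested. In DESeq2, miR-16-5p stood at 0.00904, miR-21-5p at 0.0158 and miR-22 at 0.0444. With RLE these were 0.00739, 0.0167 and 0.0446, and with TMMwsp 0.00349 for miR-21-5p and 0.0347 for miR-22. With the filter over 144 libraries, let-7f-5p stood at -0.0502, miR-221-3p at -0.0915 and miR-30a-5p at -0.103; at 60%, miR-221-3p at -0.00895 and miR-30a-5p at -0.0501. With totals alone, let-7f-5p was at -0.173, miR-221-3p at -0.239, miR-30a-5p at -0.0313, miR-451 at -0.187, miR-654-3p at -0.0786 and miR-92a-3p at -0.121. miR-22 was at 0.00928 with log10 total as covariate and 0.00822 with no filter. Without the block, miR-181a-5p was at 0.103, miR-182 at 0.379, miR-192-5p at 0.0613, miR-22 at 0.0364 and miR-654-3p at -0.162. Without RA2694M, let-7f-5p was at -0.049, miR-221-3p at -0.101, miR-27b-3p at -0.0263, miR-30a-5p at -0.156 and miR-654-3p at -0.0235. Without low totals, miR-16-5p was at 0.0536, miR-192-5p at 0.0114, miR-21-5p at 0.055, miR-22 at 0.127, miR-486-5p at -0.0635 and miR-92a-3p at -0.202. Leaving out 1 animal gave -0.15 to 0.17 for let-7f-5p, -0.25 to 0.0339 for miR-16-5p, -0.00956 to 0.30 for miR-21-3p, -0.27 to 0.0474 for miR-21-5p, -0.21 to 0.0713 for miR-22, -0.17 to 0.13 for miR-221-3p, -0.0387 to 0.23 for miR-27b-3p, -0.16 to 0.0875 for miR-30a-5p, -0.0211 to 0.26 for miR-451, -0.0897 to 0.25 for miR-654-3p and -0.0302 to 0.24 for miR-92a-3p.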

Other observations

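Some miRNAs too rare to test had counts on 1 day alone or mostly. The brain miRNA miR-129-2-3p had 60 counts in 2 day 6 libraries, 59 of them in that of RA1782F, and 0 on day 1. Its relative miR-129-5p was not confined to a day, with 65 counts in 6 day 6 libraries and 47 in 10 day 1 libraries. The star arm of the liver miRNA, miR-122a-3p, had 15 counts in 4 day 6 libraries and 0 on day 1. The relatives of miR-34a had 40 counts on day 6 and 15 on day 1 (miR-34c-5p) and 6 and 0 (miR-34b). Of the miR-34c-5p counts, 25 on day 6 lay in the library of RA1782F and 11 on day 1 in that of RA2733F. All these miRNAs were rare. They are given as values with no test, and were picked out after their values were seen.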
